A study of Sus scrofa with 8 samples.

Results

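The 10 genes SLC6A4, HNRNPLL, AKAP12, CAPSL, TRIM44, TRIM58, CADM1, ZNF773, DNASE1L1 and SEMA5B mark 1 pig B cell lymphoma clone, Lymph_Node_4. They were chosen from 22366 features because their deposited level, in reads-per-million of counted reads (RPM), was at least 4-fold higher in Lymph_Node_4 than in each of Lymph_Node_1, Lymph_Node_2, Lymph_Node_3 and Spleen_1. The remaining libraries, Spleen_2 and the splenocyte controls, did not enter that choice. ZNF773 was read from the feature ENSSSCG00000039978, which a gene name table pairs with that symbol, and the other 9 genes are listed by symbol.

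The series holds 8 RNA-seq libraries from Sus scrofa, with no age, sex, strain or treatment used here. The 4 lymph node and 2 spleen libraries (LN1 to LN4, Sp1 and Sp2) are cultures of lymphoma cells grown out from dissociated tumour and cloned in 4 successive limiting dilutions, and each library is 1 clone. The controls are splenocytes enriched on magnets, in 1 library for CD21+ cells, standing for normal B cells, and in 1 library for CD3+ cells, standing for normal T cells, and no culture step is given for them. Neither the number of animals behind the clones nor the passage of each culture is given in the sources used here, so any p-value measures the spread between clones only.

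In limiting dilution a culture is started from so few cells that it is likely to descend from 1 cell, and clones of 1 tumour can then carry different stable expression states. The 10 genes do not form 1 pathway. They encode surface and adhesion proteins (SLC6A4, CADM1 and SEMA5B), a signalling scaffold and a calcium-binding protein (AKAP12 and CAPSL), tripartite motif proteins (TRIM44 and TRIM58), nucleic acid-binding proteins (HNRNPLL and ZNF773) and an endonuclease (DNASE1L1).

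Libraries held 16415644 (LN1) to 27253505 (LN4) counts, which puts the upper limit behind a count of 0, taken as 3 counts, at 0.110 to 0.183 RPM. The 8 B cell markers summed to 4103 to 5287 RPM in the clones, 5350 RPM in CD21+ and 119 RPM in CD3+ cells, and the 9 T cell markers to 45.4 to 59.4, 88.9 and 5134 RPM. Both the clones and the controls therefore carried the markers of their labels. Intervals given below are exact 95% counting intervals. They cover counting error only.

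The word divergent was checked with the same count in every clone. In LN4, 22 features at 1 RPM or more were at least 4-fold higher than in each of the other 5 clones, and 84 were at least 4-fold lower. The other clones had 0 to 2 features higher and 0 to 3 lower by that count. Across 12014 features that reached 1 RPM in some clone, the Spearman correlation of LN4 with another clone on log2(RPM + 1) was 0.978 with LN1, 0.982 with LN2 and with LN3, 0.984 with Sp1 and 0.987 with Sp2. Pairs without LN4 correlated at 0.987 to 0.998. These are correlations across genes, which are not independent replicates.

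**Figure D1:**
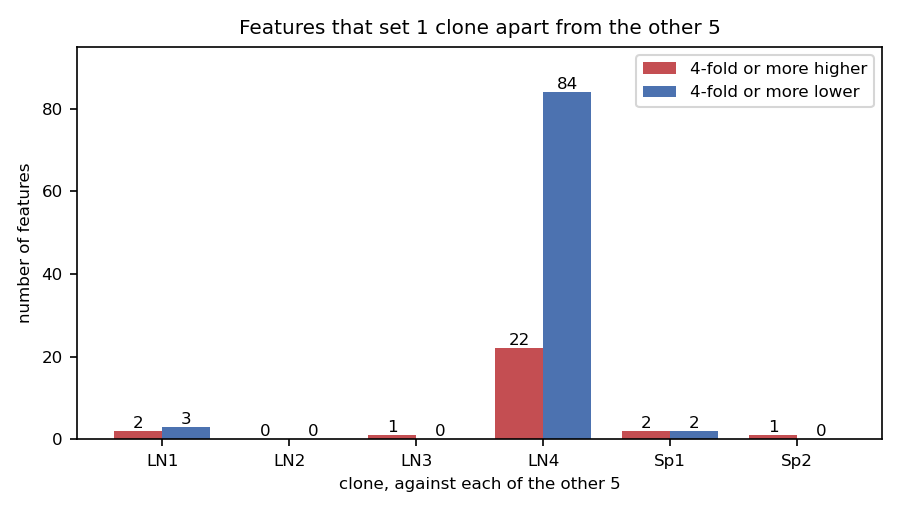
Bars give, for each clone on the x axis, the number of features at least 4-fold higher (red) or lower (blue) than in each of the other 5 clones. LN4 has 22 and 84 such features, and no other clone has more than 3 of either kind.

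SLC6A4 encodes the serotonin transporter, which returns serotonin into neurons and platelets. It stood at 50.9 RPM in LN1, 46.0 in LN2, 44.3 in LN3, 389 in LN4, 16.1 in Sp1 and 101 in Sp2, against 0.199 (CD21+) and 0.282 (CD3+) in the controls, which held 5 and 6 counts. All 6 clones lay above both controls, with LN4 highest, Sp2 next and Sp1 lowest.

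CADM1 is an immunoglobulin-family adhesion molecule of epithelial, nerve and mast cells and a ligand of CRTAM on T and natural killer cells. Its level was 1.52 RPM in LN1, 0.258 in LN2, 0.940 in LN3, 29.7 in LN4, 0.0740 in Sp1 and 6.32 in Sp2, with 1.43 in the CD21+ and 1.17 in the CD3+ library. Sp1 held 2 counts of it. The clones fell on both sides of the controls, and LN4 was 20.8 times the CD21+ and 25.3 times the CD3+ level.

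SEMA5B, a transmembrane semaphorin known from axon guidance, stood at 0.731 RPM in LN1, 1.24 in LN2, 1.10 in LN3, 11.7 in LN4, 1.11 in Sp1 and 4.14 in Sp2. Each control held 1 count of it. All 6 clones were above both controls, and 3 lymph node clones and Sp1 lay within 1.69-fold of each other.

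AKAP12, a scaffold that holds protein kinases A and C near the membrane, was at 5.91 RPM in LN1, 8.10 in LN2, 7.23 in LN3, 65.4 in LN4, 5.92 in Sp1 and 16.2 in Sp2. The CD21+ library held 0.159 RPM, or 4 counts, and the CD3+ library 2.44 RPM. Again every clone lay above both controls, and the clones other than LN4 and Sp2 differed by at most 1.37-fold.

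CAPSL encodes a calcyphosine-like protein with EF hands, the calcium-binding fold. It stood at 4.81 RPM in LN1, 6.81 in LN2, 7.64 in LN3, 63.1 in LN4, 9.39 in Sp1 and 18.8 in Sp2, against 1.95 in the CD21+ and 0.517 in the CD3+ library. Here Sp1 was higher than LN1, LN2 and LN3, the opposite of its place for SLC6A4.

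TRIM58 is a ubiquitin ligase that acts on dynein in mouse erythroblasts. Its level was 6.88 RPM in LN1, 6.40 in LN2, 6.70 in LN3, 33.8 in LN4, 7.62 in Sp1 and 11.4 in Sp2, with 0 counts in the CD21+ library and 0.376 RPM, or 8 counts, in the CD3+ library. It was the member nearest to the 4-fold threshold, with LN4 4.43 times the highest of the 4 clones used in the choice.

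TRIM44, a tripartite motif protein that lacks the RING domain of most of its family, stood at 1.71 RPM in LN1, 0.774 in LN2, 0.899 in LN3, 34.3 in LN4, 0.740 in Sp1 and 8.42 in Sp2. The controls held more than most clones, 19.3 RPM in the CD21+ and 63.7 RPM in the CD3+ library. LN4 lay between the controls, and the other 5 clones lay below both.

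HNRNPLL, an RNA-binding protein that silences variable exons of the CD45 transcript in T cells and plasma cells, was at 2.44 RPM in LN1, 1.19 in LN2, 1.55 in LN3, 67.6 in LN4, 0.0740 in Sp1 and 10.7 in Sp2. The CD21+ library held 1.75 RPM and the CD3+ library 71.3 RPM. The LN4 level was 0.948 times that of the CD3+ library, and Sp1 held 2 counts.

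ZNF773, named as a zinc finger protein, stood at 1.16 RPM in LN1, 0.568 in LN2, 0.735 in LN3, 26.4 in LN4, 0.111 in Sp1 and 4.14 in Sp2, against 7.04 in the CD21+ and 9.86 in the CD3+ library. LN4 was above both controls and the other 5 clones were below both. Zinc finger genes form a large family of related sequence, so its reads may be shared with relatives.

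DNASE1L1, a relative of deoxyribonuclease I, was at 0.670 RPM in LN1, 0.413 in LN2, 0.368 in LN3, 13.7 in LN4, 0.111 in Sp1 and 2.27 in Sp2. The CD21+ library held 69.9 RPM and the CD3+ library 5.12 RPM. Every clone, LN4 included, lay below the CD21+ library, which stood at 5.11 times the LN4 level.

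**Figure D2:**
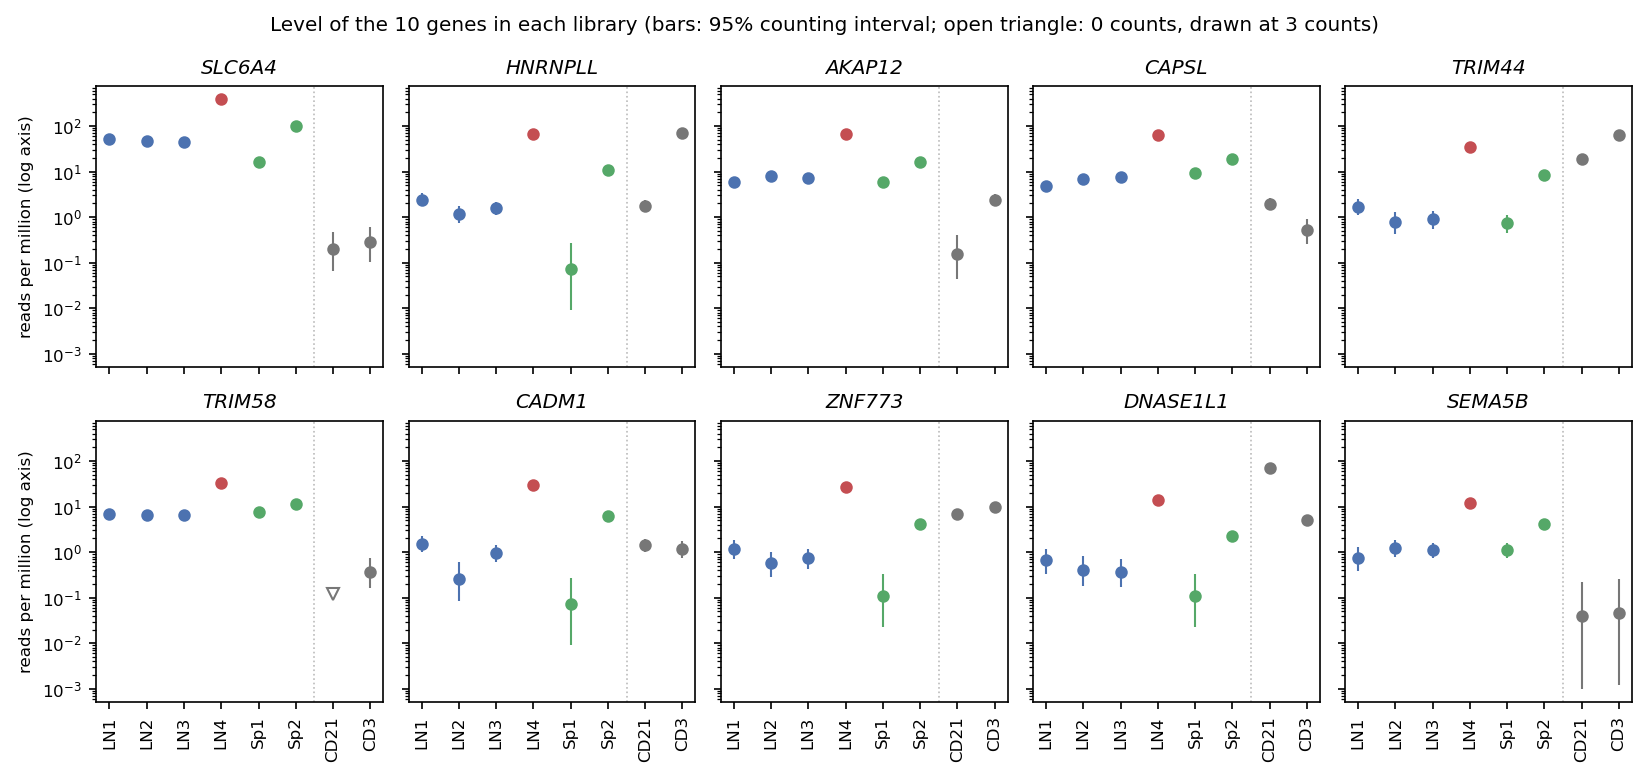
Each panel plots 1 gene, with the 8 libraries on the x axis and RPM on a log y axis; bars are 95% counting intervals and the open triangle marks 0 counts, drawn at the level of 3 counts. LN4 (red) is above LN1, LN2, LN3 and Sp1 in all 10 panels, as the choice of genes fixes. Sp2 (the right-hand green point), which did not enter the choice, is below LN4 and the second highest clone in all 10.

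The fold that chose the members ran from 4.43 (TRIM58) to 27.8 (HNRNPLL) for LN4 over the highest of LN1, LN2, LN3 and Sp1. Of 11400 features at 1 RPM or more in LN4, 37 met that fold, or 0.325%, and 10 of the 37 are the members. At 10 RPM or more 14 met it. The 4 of those that are no members are RAG1, RAG2, MPO (the peroxidase of granulocytes) and BBS1 (a subunit of a ciliary complex), of which the first pair was left out on purpose. Just inside the threshold were MPO at 4.33-fold, TRIM58 at 4.43-fold and ENSSSCG00000009213 at 4.60-fold, and just outside it were BMPR1B at 3.99-fold, BHLHE41 at 3.91-fold and SLC8A3 at 3.85-fold.

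Spleen_2, which played no part in the choice, lay between LN4 and the remaining 4 clones for all 10 genes. In 10 of 10 its counting interval was above the intervals of LN1, LN2, LN3 and Sp1, and in 10 of 10 the LN4 interval was above that of Spleen_2. The share of all features with intervals apart in these ways was not computed. By level alone, 23% of all 11553 features at 1 RPM or more in Spleen_2 were higher there than in each of those 4 clones. At least a 2-fold excess over each of the 4 was seen for 7 members, against a background of 22 features, or 0.19%. SLC6A4 and AKAP12 missed it narrowly, at 1.990-fold and 1.995-fold, CAPSL met it narrowly, at 2.001-fold, and TRIM58 missed it at 1.497-fold. The largest excess was that of TRIM44, 4.94-fold, followed by HNRNPLL at 4.41-fold and CADM1 at 4.15-fold. LN4 and the 4 clones on the low side were themselves used to pick the genes. Spleen_2 is 1 library with no replicate, so these folds and intervals carry no test.

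The place of Spleen_2 differed between genes. On a linear scale with the median of LN1, LN2, LN3 and Sp1 at 0% and LN4 at 100%, Spleen_2 stood at 13.5% for ZNF773, 14.1% for HNRNPLL and for DNASE1L1, 16.3% for SLC6A4 and for AKAP12, 17.1% for TRIM58, 19.7% for CADM1, 20.7% for CAPSL, 22.6% for TRIM44 and 28.6% for SEMA5B. The median was 16.7%. With each of the 4 clones in turn as the zero point, the position of a gene ranged from 11.8% to 15.3% for ZNF773, from 14.9% to 22.8% for SLC6A4 and from 27.7% to 31.1% for SEMA5B. The range of SEMA5B did not reach those of the other 9 genes, but these ranges leave out counting error. The SEMA5B level in Spleen_2 rests on 93 counts, with an interval of 3.34 to 5.07 RPM. Whether SEMA5B stands apart from the others was not tested. In a bulk library a moderate level in every cell and a high level in a small share of the cells cannot be told apart.

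The other 27 features that met the fold for LN4 had a median Spleen_2 position of 14.8%, with quartiles of 7.41% and 23.4%, and Spleen_2 was above each of the 4 clones in 20 of them, or 74.1%. Features at 1 RPM or more in each of the 4 clones and at least 4-fold lower in LN4 than in each numbered 103. Their median Spleen_2 position, on the same scale, was 22.2%, with quartiles of -1.75% and 37.4%, and Spleen_2 was below each of the 4 clones in 42.7% of them against 26.1% of all features at 1 RPM or more in the 4.

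**Figure D3:**
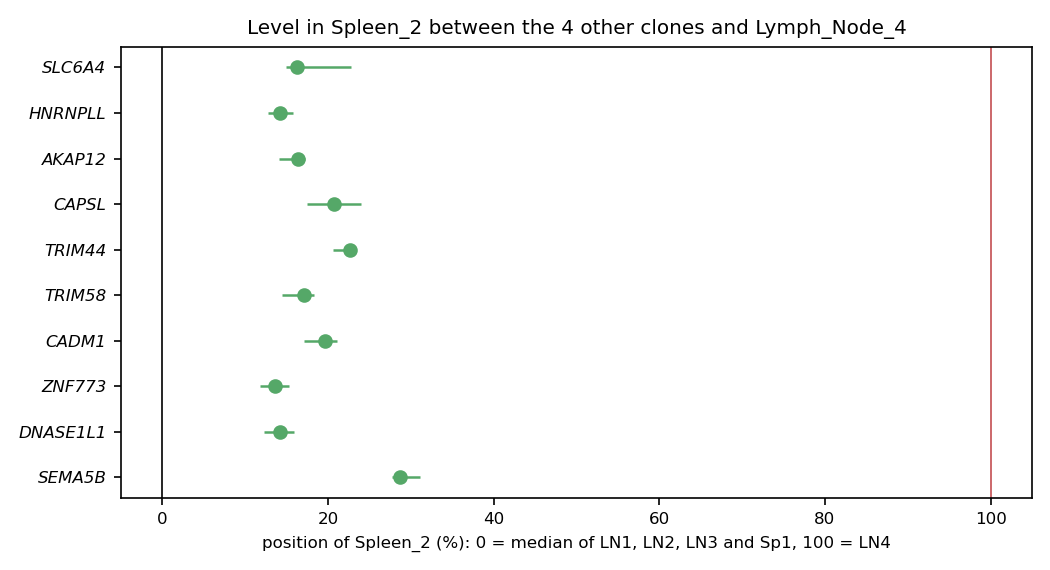
Points give the position of Spleen_2 for each gene on a linear scale from the median of LN1, LN2, LN3 and Sp1 (0%) to LN4 (100%), and bars span the values with each of those 4 clones as the zero point. All 10 genes fall between 13.5% and 28.6%.

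Among the 4 low clones the spread differed between members, seen after the values were known and given without a test. AKAP12, CAPSL, TRIM58 and SEMA5B were close to level, with the highest of LN1, LN2, LN3 and Sp1 within 1.95-fold of the lowest. TRIM44 came next at 2.31-fold and SLC6A4 at 3.15-fold. For HNRNPLL, CADM1, ZNF773 and DNASE1L1 the same ratio was 32.9, 20.6, 10.4 and 6.04, with Sp1 at 2 or 3 counts each. In 6 members (these 4, SLC6A4 and TRIM44) LN1 was the highest and Sp1 the lowest of the 4, an order held by 17.7% of all features at 1 RPM or more in LN4. The Sp1 counting interval lay under all of those of LN1, LN2 and LN3 in 2 members. The share of all features with that separation was not computed. HNRNPLL, CADM1, ZNF773 and DNASE1L1, the 4 with the widest ratios, were at 1 RPM or more in both controls, as was TRIM44. SLC6A4, TRIM58 and SEMA5B were under 1 RPM in both controls.

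The comparison with CD21+ splenocytes asks how the genes stand in the lymphoma clones against normal B cells. SLC6A4 and TRIM58 were higher in the 6 clones and DNASE1L1 was lower, and the other 7 members did not pass the threshold. SLC6A4 stood at 108 ± 141 RPM in the clones (SD, n = 6), a log2 fold change of 8.79 ± 3.15 (SE, edgeR adjusted p = 0.0362). TRIM58 stood at 12.1 ± 10.8 RPM against 0 counts (edgeR adjusted p = 0.00894). That mean was 102-fold above the level of 3 counts, and the ratio of summed counts had a lower 95% counting limit of 88.7. DNASE1L1 stood at 2.92 ± 5.33 RPM against 69.9, a log2 fold change of -4.79 ± 1.33 (edgeR adjusted p = 0.0123), lower in 6 of 6 clones.

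Those are 2 of 10 members higher, beside 34.8% of 13498 features, and 1 of 10 lower, beside 32.4%. AKAP12 was above the CD21+ level in 6 of 6 clones, with a log2 fold change of 6.53 ± 2.62 (edgeR adjusted p = 0.0546), and SEMA5B likewise. Its 505 clone counts against 1 gave an RPM ratio of 92.7 (16.6 to 3670, edgeR adjusted p = 0.0888). CAPSL had a log2 fold change of 2.98 ± 1.72 and HNRNPLL of 2.75 ± 2.97 (edgeR adjusted p = 0.159 and 0.437). For CADM1 the log2 fold change was 1.93 ± 2.66, for TRIM44 -1.55 ± 1.70 and for ZNF773 -0.59 ± 2.00 (edgeR adjusted p = 0.541, 0.443 and 0.808). The lone control was assumed to vary like the clones, and the genes were chosen for a wide spread between clones, which enters these errors.

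Without LN4 the count became 5 higher and 3 lower, beside 37% and 34.3% of 13412 features. AKAP12 (log2 5.42, edgeR adjusted p = 0.00182), CAPSL (log2 1.98, adjusted p = 0.0483) and SEMA5B (adjusted p = 0.0317) joined the higher genes. TRIM44 (log2 -3.25, edgeR adjusted p = 0.0161) and ZNF773 (log2 -2.70, adjusted p = 0.0400) joined DNASE1L1, whose log2 fold change moved from -4.79 to -6.84. That of SLC6A4 moved from 8.79 to 7.68, and TRIM58 stood at 7.80 ± 2.06 RPM (SD, n = 5), 65.4-fold above 3 counts in the control. HNRNPLL came to log2 0.56 and CADM1 to 0.04, in place of 2.75 and 1.93. Of the 5 clones left, 4 were those in which the genes had been picked for low values. Without Sp2, SLC6A4 was no longer called (log2 8.81, edgeR adjusted p = 0.0545), though its fold was as large, and under limma-voom neither SLC6A4 (log2 7.89) nor TRIM58 was (adjusted p = 0.481 and 0.194).

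The comparison with CD3+ splenocytes sets the same clones against normal T cells. SLC6A4 and TRIM58 were again higher, and no member was lower. For SLC6A4 the log2 fold change was 8.14 ± 3.07 and for TRIM58 4.57 ± 1.54 (SE, edgeR adjusted p = 0.0415 and 0.0266), both above the control in 6 of 6 clones. These are 2 of 10 members, beside 36.8% of 13560 features higher and 35.1% lower. TRIM44 and HNRNPLL lay under the CD3+ level in 6 of 6 clones, at log2 -3.42 ± 1.46 and -2.74 ± 1.74, but did not pass (edgeR adjusted p = 0.0641 and 0.186). The unadjusted edgeR p of TRIM44 was 0.0473, and the share of all features passing without adjustment was not counted. DESeq2 called 0 lower but gave no adjusted p for TRIM44, HNRNPLL, ZNF773 and DNASE1L1, and limma-voom called HNRNPLL and TRIM44 lower, beside 35.3% and 35.2% of all features.

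The remaining 6 members did not pass either. CAPSL was at log2 4.73 ± 2.16 and AKAP12 at 2.47 ± 1.73 (edgeR adjusted p = 0.0797 and 0.228). For CADM1 the value was 2.06 ± 2.76, for ZNF773 -1.23 ± 1.91 and for DNASE1L1 -1.20 ± 1.82 (edgeR adjusted p = 0.522, 0.579 and 0.571). SEMA5B, again with 1 control count, gave an RPM ratio of 78.5 (14.0 to 3106, edgeR adjusted p = 0.105). Without LN4, SLC6A4 (log2 7.02), TRIM58 (3.89), CAPSL (3.73) and SEMA5B were higher and HNRNPLL (log2 -4.96, edgeR adjusted p = 0.00170), TRIM44 (-5.13, 0.000654), ZNF773 (-3.35, 0.0133) and DNASE1L1 (-3.21, 0.0113) were lower, beside 38.6% and 37.2% of 13480 features. Here too 4 of the 5 clones left were those in which the genes had been picked for low values, so the lower calls draw on that choice. CADM1 came to log2 0.16 in place of 2.06. Without Sp2, SLC6A4 kept its fold (log2 8.16) but was not called (edgeR adjusted p = 0.0610), and under limma-voom SLC6A4 (log2 7.25) and TRIM58 (4.22) were not (adjusted p = 0.483 and 0.223). Every clone was cultured and the controls were not described as cultured, so culture and lymphoma cannot be told apart in either comparison.

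**Figure D4:**
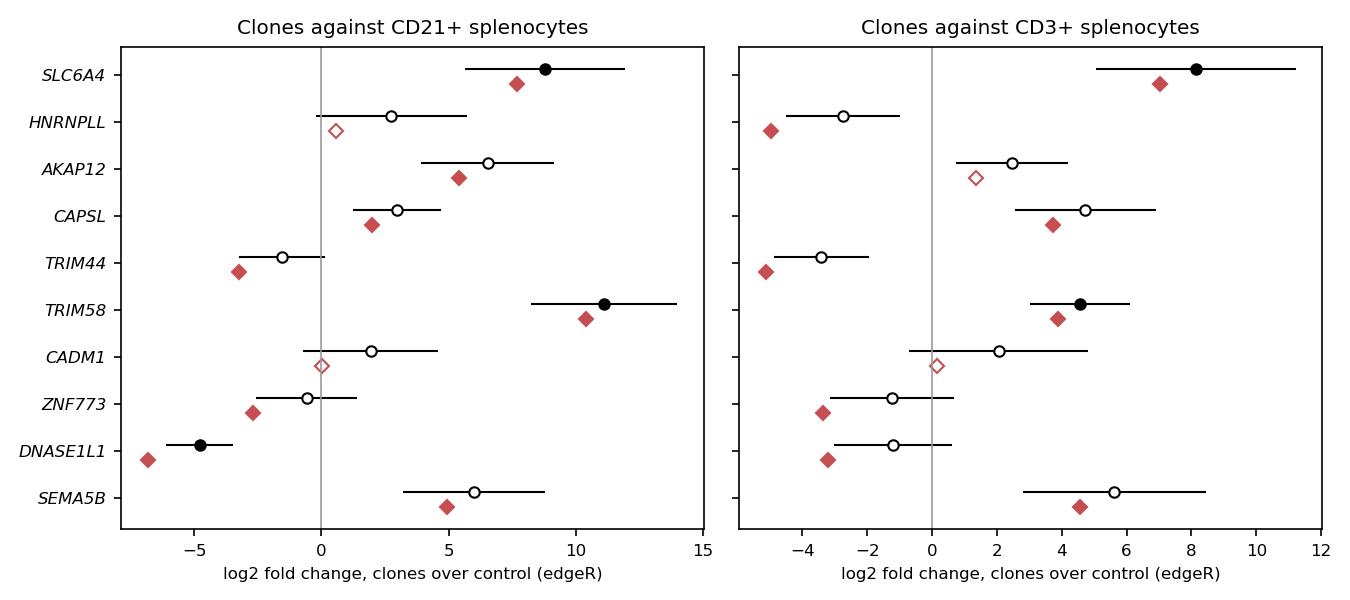
Circles give the edgeR log2 fold change of the 6 clones over the CD21+ (left) or CD3+ (right) library with its approximate SE, and red diamonds the value without LN4; filled symbols passed an adjusted p of 0.05. SLC6A4 and TRIM58 are filled and to the right in both panels, and DNASE1L1 is filled and to the left in the CD21+ panel; the TRIM58 value against CD21+ and both SEMA5B values rest on 0 or 1 control count and depend on the prior count.

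Between the controls, HNRNPLL, AKAP12 and TRIM44 were at least 2-fold higher in the CD3+ library and CAPSL and DNASE1L1 in the CD21+ library. Of 11712 features at 1 RPM or more in either control, 15% were at least 2-fold higher in CD3+ and 15.6% in CD21+. The CD3+ over CD21+ ratio was 40.8 (30.2 to 56.4) for HNRNPLL and 3.30 (2.97 to 3.66) for TRIM44, and the CD21+ over CD3+ ratio was 13.7 (11.2 to 16.7) for DNASE1L1. With 1 library of each there is no replicate check on these ratios.

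The 9 members with a place in the Sscrofa11.1 annotation of RefSeq lay on 8 chromosomes. SLC6A4 is at 46285995 to 46328377 on chromosome 12, HNRNPLL at 101753330 to 101795356 on chromosome 3, and AKAP12 at 14904109 to 15017016 on chromosome 1. CAPSL lies at 21349279 to 21356670 on chromosome 16, CADM1 at 42644487 to 42984934 on chromosome 9, and SEMA5B at 137443982 to 137586962 on chromosome 13. DNASE1L1 is at 124931410 to 124937569 on chromosome X. TRIM44 and TRIM58 share chromosome 2, at 25275193 to 25378738 and 55822361 to 55843923. ZNF773 was not placed.

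The nearest expressed genes on either side of the members were mostly level between LN4 and the other clones. Some of these genes lay far off. The nearest to TRIM58 were 3485 and 1048 kb away, and the nearest to CADM1 656 and 1136 kb away. For each placed member the 5 nearest genes on each side that reached 1 RPM in some clone were read, 90 genes in all, and the log2 ratio of (RPM + 0.5) in LN4 over the median of LN1, LN2, LN3 and Sp1 had a median of -0.03. Of the 90, 3 were at least 2-fold higher in LN4, or 3.33%, against 1.25% of 12014 features, and 0 were 2-fold lower, against 4.29% of these features. The 3 higher genes were RAG1 and RAG2, beside TRIM44, and GALM, beside HNRNPLL. All 3 also met the 4-fold rule, and RAG1 and RAG2 count as neighbours only because they were left out of the members on purpose.

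GALM, which encodes galactose mutarotase, ends 70.5 kb before HNRNPLL begins. It stood at 1.83 RPM in LN1, 0.671 in LN2, 1.18 in LN3, 9.91 in LN4, 1.41 in Sp1 and 3.52 in Sp2, with 1.63 in CD21+ and 8.03 in CD3+ cells. LN4, Sp2 and LN1 were in that order the 3 highest clones, as they were for HNRNPLL, and of the controls CD3+ was again the higher. GALM itself met the 4-fold rule, at 5.42-fold, and the share of all features with that order was not computed. Sp1 was the lowest clone for HNRNPLL but lay above LN2 and LN3 for GALM. The next genes outwards, SRSF7 and ATL2, had log2 ratios of -0.07 and 0.14.

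TRIM44 starts 701 kb after the end of RAG1. The recombinase genes RAG1 and RAG2, which cut DNA in V(D)J recombination, stood at 30.8 and 328 RPM in LN4, 1.31 to 1.83 and 38.4 to 61.0 RPM in the 4 low clones, and 4.50 and 103 RPM in Sp2. The expressed genes between RAG1 and TRIM44 were TRAF6, COMMD9 and LDLRAD3, with log2 ratios of 0.40, -0.02 and 0.20. Among other neighbours, IL7R, the interleukin 7 receptor chain 19.1 kb from CAPSL, was at 133 RPM in LN4, 71.1 to 88.5 RPM in the 4 low clones and 92.1 RPM in Sp2, a log2 ratio of 0.65. RPL10 and TAZ, 1.62 and 2.47 kb from DNASE1L1 on either side, had log2 ratios of 0.23 and -0.13. Strandedness is not given in the sources used here, and none of the 90 neighbours overlapped its member.

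**Figure D5:**
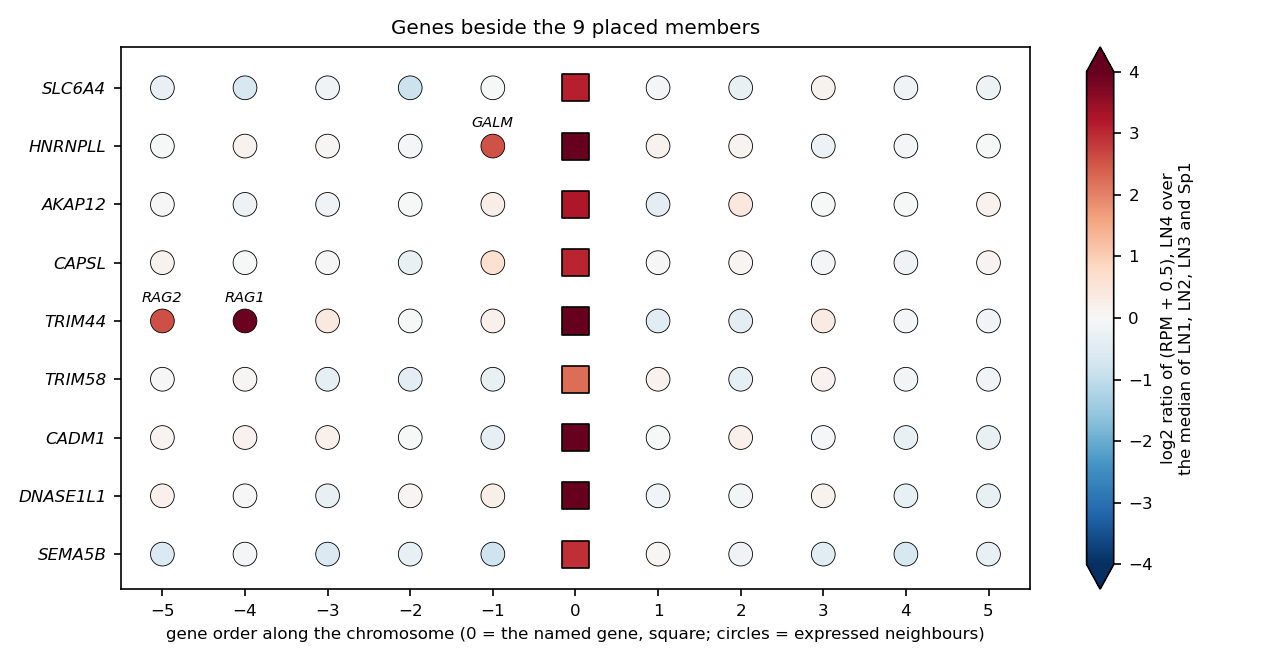
Rows are the 9 placed members (squares) and columns their expressed neighbours in gene order (circles), coloured by the log2 ratio of (RPM + 0.5) in LN4 over the median of LN1, LN2, LN3 and Sp1, with colours saturating at 4. Only RAG1, RAG2 and GALM, labelled, are 2-fold or more higher among the 90 neighbours.

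Families and partners of the members were read from 7 lists, of which 101 genes reached 1 RPM in some clone. None met the 4-fold rule, which 0.325% of all features met upwards and 0.911% downwards, so a count of 0 upwards is near the background. At 2-fold, 2 of the 101 were higher in LN4 than the median of the 4 low clones (TIAM1 and TRIM46) and 3 lower (SEMA6D, PLXND1 and MAOB), or 1.98% and 2.97%, beside 1.25% and 4.29% of 12014 features. Counts of list genes called against a control stand beside the shares of all features given above, 34.8% higher and 32.4% lower against CD21+, and 36.8% and 35.1% against CD3+. Of 18 serotonin system genes 5 reached 1 RPM in some clone, with log2 ratios of LN4 over the 4 low clones from -1.10 (MAOB) to 0.41 (MAOA, which breaks down serotonin, at 50.7 RPM in LN4 and 37.0 to 42.9 in the 4 clones). SLC18A2, which loads serotonin into vesicles, was at 0.294 RPM in LN4. Against CD21+, 5 of 10 tested genes of that list were higher in the clones and 3 lower, with a median log2 fold change of 2.56 beside 0.05 for all features. Against CD3+ 6 of 9 were higher and 3 lower (median 3.53, beside 0.05). Of the higher genes, SLC18A2, SLC29A4 and TPH2 stood at 0, 0.0398 and 0.0398 RPM in CD21+ and at 0, 0 and 0.0470 in CD3+. HTR4, also higher against CD3+, stood at 0 RPM there. Such values are near the floor, so these fold changes and both medians depend on the prior count.

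Splicing factors of the CD45 transcript were level, from log2 -0.33 (HNRNPL) to 0.15 (PTBP2). PTPRC, which encodes CD45 itself, stood at 341 RPM in LN4, 491 to 552 RPM in the 4 low clones and 469 RPM in Sp2, a log2 ratio of -0.59, beside a 5th to 95th percentile of -0.92 to 0.43 over all features. Against CD21+, the clones had a lower PTPRC level (log2 -2.23 ± 0.16, edgeR adjusted p = 9.70e-06). Of the 12 genes of this list 4 were higher and 4 lower than in CD21+ (median log2 0.05), and 7 and 4 of 12 against CD3+ (median 0.41).

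Of 11 relatives and partners of CADM1 5 reached 1 RPM in some clone. TIAM1, an exchange factor for the small GTPase Rac, was at 30.3 RPM in LN4 and 9.65 to 21.5 RPM in the 4 low clones, a log2 ratio of 1.11. CADM4, another member of the CADM family, was at 49.1 RPM in LN4 and 49.6 to 52.9 RPM in the 4, and CRTAM had 0 counts in all 6 clones. All 6 tested genes of this list were higher in the clones than in CD21+ (median log2 4.60), beside 34.8% of all features. Of these, NECTIN4 and MPP3 were at 0.0398 and 0 RPM in CD21+, so their values depend on the prior count. Against CD3+, 3 of 7 were higher and 3 lower (median 1.94), beside 36.8% and 35.1%.

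The semaphorin and plexin list held 22 of 30 genes at 1 RPM or more in some clone. Their log2 ratios ran from -1.77 (SEMA6D) to 0.97 (SEMA6C), with a median of -0.38, beside -0.07 over all 12014 features. PLXND1, a semaphorin receptor, stood at 15.7 RPM in LN4 and 33.1 to 49.6 RPM in the 4 low clones. Against CD21+ 11 of 26 were higher and 10 lower, and against CD3+ 11 of 25 and 9 (medians 0.05 and 0.30), close to the shares of all features.

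Kinase A anchoring genes, the list of AKAP12, ran from log2 -0.38 (AKAP6) to 0.49 (AKAP5) over 17 genes, and 5 of 17 were higher and 6 lower in the clones than in CD21+, 4 and 8 of 17 against CD3+ (medians 0.14 and -0.03). The DNase list ran from -0.68 (DNASE2) to 0.12 (DFFB) over 6 genes, with 2 of 7 higher and 4 lower than in CD21+, and 2 and 3 of 7 against CD3+ (medians -1.18 and -0.68). In the tripartite motif family 34 of 51 genes reached 1 RPM in some clone, from log2 -0.98 (TRIM2) to 1.28 (TRIM46, at 4.11 RPM in LN4 and 1.22 to 2.12 RPM in the 4 low clones). Of 35 tested 16 were higher and 14 lower than in CD21+, and 12 and 12 than in CD3+ (medians -0.09 and -0.16).

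SLC6A4 is known from platelets and TRIM58 from erythroid cells, and markers of these cells did not separate LN4. The 8 platelet markers found summed to 130 RPM in LN4 and 127 to 137 RPM in the other 5 clones, almost all of it ITGA2B, with PPBP, GP1BA, GP1BB, GP6 and ITGB3 at 0 counts in LN4. The 6 erythroid markers found summed to 0.294 RPM in LN4 and 0.185 to 0.449 RPM in the other 5, and HBB, ALAS2 and AHSP had 0 counts in all 6 clones. Sums in LN4 and in the other 5 clones were 57.8 and 45.4 to 59.4 RPM for T cell, 18.2 and 19.2 to 29.1 RPM for NK, 111 and 82.8 to 107 RPM for myeloid, 104 and 106 to 121 RPM for plasma cell, and 11.08 and 18.2 to 27.2 RPM for stroma and endothelium markers. By these sums LN4 was the highest clone for the myeloid list and the lowest for the NK, plasma cell and stromal lists. Single genes went both ways. Among myeloid markers ITGAM was highest in LN4 (69.2 RPM) and CD68 lowest there (0.110 RPM). Among plasma cell markers JCHAIN was highest in LN4 (23.1 RPM) and SDC1 lowest there (8.18 RPM). The part of these shifts in the members' levels was not tested.

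The features most like the members over the 8 libraries were sought among 2868 features that reached 10 RPM and spanned at least 2 log2 units. The measure was the Pearson correlation with the mean of the members' standardized log2(RPM + 1) profiles, which LN4 dominates. RAG1 came first at 0.910, then PAN3, a subunit of a poly(A) deadenylase, at 0.891, MPO at 0.777, ATP4A at 0.777, AP3M2 at 0.771, RASL11A at 0.757, SLC8A3 at 0.730, CDK14 at 0.704, TENM3 at 0.697 and ARAP2 at 0.693. PAN3 stood at 295 RPM in LN4, 94.5 to 110 RPM in the 4 low clones, 117 in Sp2, 99.0 in CD21+ and 71.5 in CD3+. The members' own correlations with that mean ran from 0.313 (DNASE1L1, whose highest library is CD21+) to 0.975 (CADM1).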

How the data were processed

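RNA-seq reads of 6 lymphoma clones and 2 splenocyte controls were aligned to Sscrofa11.1 per the series description, and the submitters' processing notes list Trimmomatic, Bowtie2 and edgeR with no version; the counting tool is not given in the sources used here. The authors deposited raw counts per gene in 2 tables, identical for the 7 shared libraries, and reads-per-million, equal to each count divided by its library total. Of features with an Ensembl ID alone, 877 received a symbol from a gene name table.

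Levels are the deposited RPM. Each control was compared with the clones in its own two-sided edgeR 4.0.16 quasi-likelihood fit of the counts (TMM factors, filterByExpr), with Benjamini-Hochberg adjustment over all features tested and a threshold of 0.05. The approximate SE is the size of the log2 fold change divided by the root of F. The procedure was tested on simulated data. The simulation gave every gene the same small spread and changed only well-counted genes. It therefore does not bear on genes as variable between clones, or as low in a control, as several members. Bounds put 3 counts in a library with 0. Alternatives were RLE factors, total-count scaling, no filter, DESeq2 1.42.0, limma-voom 3.58.1 and each clone left out.

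The members and gene lists were chosen with earlier results of these data known. Named genes are the members, RAG1 and RAG2, list genes, features at the threshold and the 10 features most like the members; neighbours and BBS1 were named after their values were seen. Promoter and protein sequences were not used here.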

Additional observations from a re-analysis of the deposited data

Results flagged for a closer look

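Within the 6 clones, LN4 stood far from LN1, LN2, LN3 and Sp1 for all 10 genes, which is what they were chosen for. The gap from LN4 to the next clone, divided by the range of the 6 clones, was 0.772 for SLC6A4, 0.842 for HNRNPLL, 0.828 for AKAP12, 0.760 for CAPSL, 0.771 for TRIM44, 0.817 for TRIM58, 0.789 for CADM1, 0.847 for ZNF773, 0.841 for DNASE1L1 and 0.689 for SEMA5B, each above Dixon's 95% critical value for 6 samples. Chance alone gives such a value in about 1 of 20 groups, but not in genes picked for it. The clone next to LN4 was Spleen_2 in all 10.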

How the results depend on the processing

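Against CD21+, DESeq2 called 4 members higher and 0 lower (all features 34.6% and 32.2%), with no adjusted p for 2 members, and limma-voom 0 and 2 (31.2% and 33%). Against CD3+, DESeq2 called 4 higher (35.8%), with no adjusted p for 4 members, and limma-voom 0 higher and 2 lower (32.6% and 35.2%). With 1 clone left out, 1 to 5 members were higher and 1 to 3 lower against CD21+. The shares of all features were 33.0% to 37.0% and 30.6% to 34.3%. Against CD3+, 1 to 4 members were higher and 0 to 4 lower, beside 35.0% to 38.6% and 33.3% to 37.2%. The highest of each of these member counts came without LN4. With both LN4 and Sp2 left out, a setting chosen after seeing the data, 5 were higher and 3 lower against CD21+ (all features 37.4% and 33.5%) and 5 and 4 against CD3+ (38.6% and 36.7%); the 4 clones left are those that chose the genes for low values, so these calls draw on that choice. CADM1 turned to log2 -1.41 and -1.29 there and to -0.34 and -0.21 under limma-voom, and HNRNPLL against CD21+ turned to -0.78; the cause was not tested. With 1 clone left out, these values ran from 0.04 to 2.19 (CADM1, CD21+), 0.16 to 2.32 (CADM1, CD3+) and 0.56 to 3.01 (HNRNPLL), lowest without LN4 and highest without Sp1. AKAP12 passed against CD21+ under total-count scaling (edgeR adjusted p = 0.0440) and without LN1 (0.0499).

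Total-count scaling moved the median log2 fold change of all features from 0.05 to 0.35 against CD21+ and from 0.05 to 0.51 against CD3+, with 6189 features higher and 3093 lower, and 6852 higher and 3115 lower, in place of 4697 and 4372, and 4992 and 4765. The fold rule was met by 293 features with no floor and by 14 with a floor of 10 RPM. With TMM or RLE scaling of the levels all 10 members met the 4-fold rule, 8 in place of 7 were 2-fold higher in Spleen_2, and the median Spleen_2 position was 16.2% in place of 16.7%. No paired analysis was possible because the 6 clones were compared as 1 group with a lone control library, which share fewer than 2 replicate numbers. HNRNPLL, CADM1, ZNF773 and DNASE1L1 rest on 2 or 3 counts in Sp1, which limits their ratios there.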
